A study of Mus musculus with 8 samples.

Results

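The levels of 9 regulatory long noncoding RNAs (lncRNAs) that are not imprinted, Malat1, Neat1, Miat, Rmst, Sox2ot, Dlx6os1, Norad, Gas5 and Pvt1, were measured in RNA sequencing of the neonatal mouse organ of Corti. They were picked by gene symbol, and all 9 of the listed symbols were found among 41079 genes, of which 11856 are of lncRNA class in RefSeq. A filter on low counts kept 20581 genes for testing and 8 of the 9 lncRNAs, with Dlx6os1 falling below it. The 8 libraries were made from total RNA after depletion of ribosomal RNA, from organ of Corti dissected at P0, the day of birth. There are 4 libraries labelled conditional Prox1 knockout, carrying Emx2-cre and a floxed Prox1 gene, so that Cre is made where the Emx2 locus is active. The other 4 libraries are wildtype, with no further allele or agent given. The labels give neither strain, sex nor litter, and do not say whether a library holds 1 animal or a pool, so each p-value below is set against a spread between libraries that may be technical rather than between animals.

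Long noncoding RNAs act as RNA, without being translated. Malat1 sits in nuclear speckles, Neat1 builds the nuclear bodies called paraspeckles, and Miat forms its own nuclear foci in neural cells. Norad works in the cytoplasm by binding Pumilio proteins, Gas5 is the spliced host of small nucleolar RNAs, and Sox2ot and Dlx6os1 are transcribed around the developmental genes Sox2 and Dlx6.

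Counts per gene do not show the floxed part of Prox1 on its own. Over the whole gene, Prox1 was higher with the knockout label, not lower. Its level was 147, 137, 138 and 134 CPM (counts scaled to the library's total and a TMM factor) in the libraries labelled knockout 1 to 4, against 109, 114, 106 and 115 CPM in wildtype libraries 1 to 4. The log2 fold change was 0.33 ± 0.05 (SE; adjusted p = 0.0298, edgeR quasi-likelihood test with Benjamini-Hochberg adjustment), so directions below are those of the libraries as labelled. Emx2 had 19.7 ± 2.39 CPM in the libraries labelled knockout and 16.2 ± 1.61 CPM in wildtype libraries (SD, n = 4 each; adjusted p = 0.607, edgeR). Total counts were 29908965 to 32613549 in the libraries labelled knockout and 32863533 to 42318233 in wildtype libraries, so every library labelled knockout was shallower than every wildtype library. Of the tissue markers, summed levels of 5 hair cell genes ranged over 358 to 390 CPM with the knockout label and 358 to 406 CPM in wildtype, and those of 5 supporting cell genes over 740 to 796 CPM with the knockout label and 704 to 798 CPM in wildtype, with none of these genes at 0 in any library. At an unadjusted p under 0.05, 1 supporting cell gene was higher and 1 lower. The higher one, Hey2, had non-overlapping groups and a log2 fold change of 0.42 ± 0.07 (adjusted p = 0.0738, edgeR, and 0.000698, DESeq2). Markers of adjoining tissue differed between the groups, though none of those listed passed with edgeR and DESeq2 called 2 stria and melanocyte genes and 1 mesenchyme gene lower: 5 stria and melanocyte genes came to 15.8 to 18.2 CPM with the knockout label and 20.3 to 62.6 CPM in wildtype, and 4 mesenchyme genes to 2907 to 3418 CPM with the knockout label and 3430 to 4269 CPM in wildtype. Summed levels of 4 red cell genes were 1408 to 2558 CPM with the knockout label and 1756 to 4027 CPM in wildtype, and those of 3 endothelium genes 102 to 119 CPM with the knockout label and 109 to 140 CPM in wildtype. At an unadjusted p under 0.05, 5 of 5 stria and melanocyte genes, 2 of 4 mesenchyme, 3 of 4 red cell and 2 of 3 endothelium genes were lower with the knockout label, and none of these was higher. The 6 neuron and 3 macrophage genes all had log2 fold changes below 0, with 0 at that threshold. Over all tested genes, 2.78% were lower and 4.76% higher at that threshold, and 50% had a log2 fold change above 0. DESeq2 called 0.262% of the genes with an adjusted p lower and 0.188% higher. The part of these tissues and of depth in the results on the lncRNAs was not tested.

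Several of the transcripts carry sequence features known to matter for how they work, and stretches that hold them are printed from the mouse GENCODE M21 transcripts (build GRCm38), 5′ to 3′ on the RNA strand and in DNA letters. Motifs were searched on the RNA strand only, in the longest transcript of each gene, and the background is 4998 lncRNA genes whose longest transcript has at least 1000 bases. Malat1 and Neat1 have no ordinary poly(A) tail at their cleaved ends, where an A-rich tract folds back on U-rich stretches into a triple helix that protects the RNA. The last 11 bases of Neat1, AAAAAGCAAAA, served as the A-rich motif, and the reverse complement of its last 10, TTTTGCTTTT, as the U-rich one. Both are in capitals in the stretches at chr19:5795982-5796061 for Malat1 and chr19:5824708-5824787 for Neat1 on the minus strand.
Malat1: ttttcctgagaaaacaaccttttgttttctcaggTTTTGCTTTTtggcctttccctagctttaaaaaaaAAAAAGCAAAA
Neat1: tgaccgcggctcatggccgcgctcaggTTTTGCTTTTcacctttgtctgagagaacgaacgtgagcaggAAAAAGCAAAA
Both motifs, with the U-rich one before the A-rich one inside 80 bases, were found in 2 of the 4998 transcripts, 0.0400%, and these 2 were Malat1 and Neat1. Since the A-rich motif was taken from Neat1, the match of Neat1 to it was fixed in advance. The A-rich motif on its own was held by 0.560% of them. Neat1 ends with it by choice of the motif, after 20771 bases, while in Malat1 it starts at base 6681 of 6983, ahead of the small tRNA-like RNA that is cut off downstream.

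Norad carries repeated Pumilio response elements and Miat repeated copies of the branch-point sequence that splicing factor Sf1 binds. The stretches shown are those where the copies lie closest together, at chr2:156390502-156390558 for Norad and chr5:112216750-112216814 for Miat, both on the minus strand. Capitals mark the Pumilio motif TGTANATA in Norad and the branch-point motif TACTAAC in Miat.
Norad: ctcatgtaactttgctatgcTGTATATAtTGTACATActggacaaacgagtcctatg
Miat: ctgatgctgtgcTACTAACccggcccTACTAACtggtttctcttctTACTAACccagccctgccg
Norad held 11 Pumilio motifs in 4915 bases. At least as many were held by 2 of the 4998 background transcripts, Norad included, or 0.0400%, against 22.0% that held at least 1. Among the other lncRNAs, Neat1 and Sox2ot held 4 each, Pvt1 and Dlx6os1 2 each, Miat, Rmst and Gas5 1 each, and Malat1 0. Miat held 6 branch-point motifs in 9163 bases. At least as many were held by 2 of the 4998 background transcripts, Miat included, or 0.0400%, where 6.12% held at least 1. Neat1 held 1 and the remaining 7 lncRNAs 0. These counts take no account of transcript length. Per base, 80 of the 4998 transcripts, Miat included, held at least as many branch-point motifs as Miat, and 3, Norad included, at least as many Pumilio motifs as Norad.

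Gas5 belongs to the transcripts that start with a C followed by pyrimidines, a 5′ terminal tract that ties translation to growth signals. The first 40 bases of its longest annotated transcript, at chr1:161035166-161035205 on the plus strand, are printed with the opening pyrimidine tract in capitals.
Gas5: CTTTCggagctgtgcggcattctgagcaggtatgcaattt
Of 25 annotated Gas5 transcripts, 5 opened with a C and at least 3 further pyrimidines. The remaining transcripts start elsewhere in the annotation, and which starts were used in these libraries cannot be read from counts per gene.

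**Figure D1:**
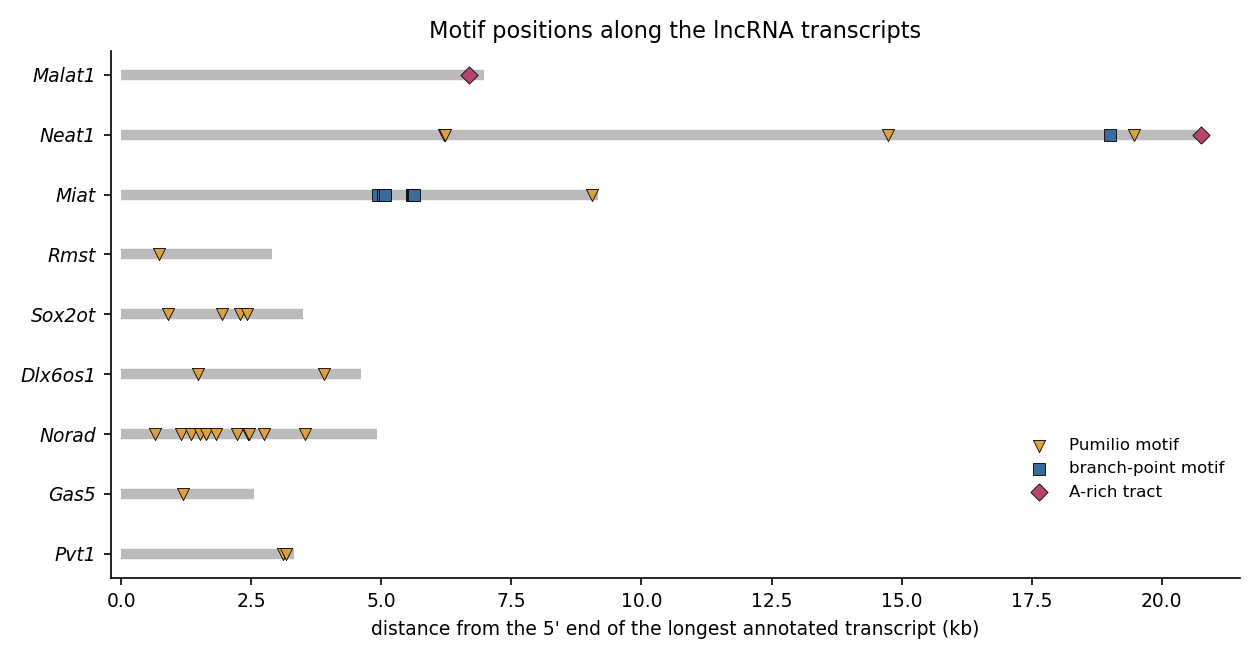
Positions of 3 motifs along the longest annotated transcript of each of the 9 lncRNAs; the x axis is the distance in kb from the 5′ end, grey bars are the transcripts, and each symbol is 1 match on the RNA strand. The 11 Pumilio motifs of Norad spread over its first 3.526 kb, the 6 branch-point motifs of Miat lie between 4.941 and 5.623 kb, and the A-rich tracts stand near the ends of Malat1 and Neat1.

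The 9 lncRNAs differed widely in level, and only some of them were abundant. Per kilobase of annotated exon, Malat1 averaged 695 ± 150 CPM over the 8 libraries (SD), Norad 115 ± 9.40, Gas5 18.2 ± 2.86 and Miat 5.01 ± 1.88 CPM per kb. On this scale these 4 kept their order in every library, since the range of each ended above the next. The length used is that of all annotated exons of a gene joined, 3760 bases for Gas5 with its 25 transcripts. Where the RNA present is shorter than that, its level is understated, and other lengths were not tried. Neat1 (0.603 ± 0.0868), Pvt1 (0.434 ± 0.0881), Sox2ot (0.369 ± 0.0345) and Rmst (0.365 ± 0.0943 CPM per kb) followed with overlapping ranges between neighbours, and Dlx6os1 was lowest at 0.0172 ± 0.0165 CPM per kb. By summed counts, Malat1 ranked 1 and Norad 5 among the 11856 lncRNA-class genes, Gas5 ranked 23, Miat 39 and Neat1 233. Sox2ot ranked 652, Pvt1 880, Rmst 971 and Dlx6os1 5337.

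**Figure D2:**
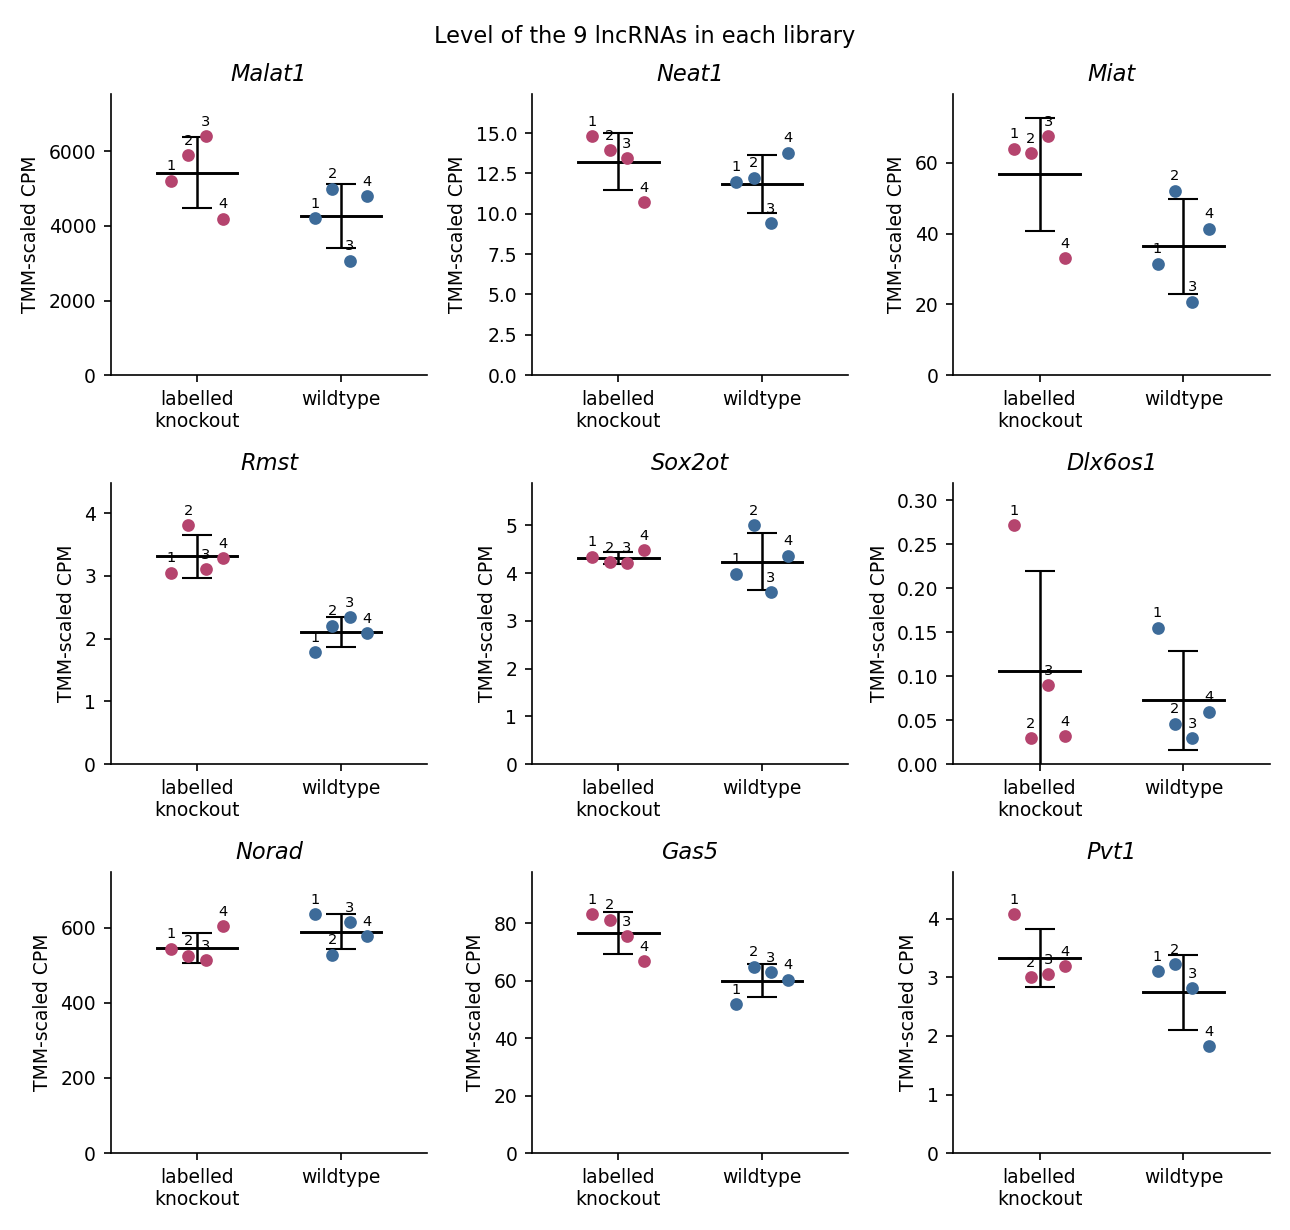
Level of each lncRNA in TMM-scaled CPM on linear axes that start at 0, with the libraries labelled knockout left of the wildtype libraries; points are libraries with their number, the long bar is the mean and the whiskers are 1 SD. The groups do not overlap for Rmst and Gas5, and the libraries labelled knockout 4 and wildtype 3 are the lowest of their groups for Malat1, Neat1 and Miat.

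None of the 8 tested lncRNAs passed the threshold of 0.05 on the adjusted p between the libraries labelled knockout and wildtype (edgeR quasi-likelihood test, Benjamini-Hochberg over all tested genes). The background was low as well: 19 of 20581 genes passed, 0.0923%, of which 7 were higher (0.034%) and 12 lower (0.0583%) with the knockout label. At an unadjusted p under 0.05, Miat, Rmst and Gas5 had higher values with the knockout label and none lower ones, where 4.76% of all tested genes were higher and 2.78% lower by that rule. DESeq2 called 1 of the lncRNAs, Gas5, where 0.188% of the genes with an adjusted p were called higher and 0.262% lower.

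Malat1, the nuclear speckle RNA, lies on chromosome 19 (GRCm38 5795690 to 5802672, minus strand) as a single exon. Its level was 5218, 5903, 6401 and 4194 CPM in the libraries labelled knockout 1 to 4, against 4217, 5000.0, 3072 and 4798 CPM in wildtype libraries 1 to 4. Libraries 1 to 3 labelled knockout stood above every wildtype library, while library 4 lay among the wildtype values, so the groups overlapped. This gave a log2 fold change of 0.35 ± 0.16 (SE; 95% interval -0.00127 to 0.69; adjusted p = 0.647, edgeR). With single libraries left out it ran from 0.22, without wildtype library 3, to 0.45, without library 4 labelled knockout. Without wildtype libraries 1 and 3 together it was 0.15.

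Neat1, the paraspeckle scaffold, is the nearest tested gene on that side, on the same strand (chromosome 19, 5824708 to 5845478, 1 exon in its longest transcript). Its level was 14.8, 13.9, 13.4 and 10.7 CPM in the libraries labelled knockout, against 11.98, 12.2, 9.43 and 13.8 CPM in wildtype libraries. Libraries 1 and 2 labelled knockout exceeded the highest wildtype library and the groups overlapped. Its log2 fold change was 0.16 ± 0.13 (95% interval -0.12 to 0.44; adjusted p = 0.725, edgeR), with 0.06 to 0.24 when single libraries were left out. The short and the long Neat1 isoform share their 5′ part and were counted as 1 gene. Malat1 counts per Neat1 count were 353 to 477 in the libraries labelled knockout and 326 to 409 in wildtype libraries.

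Miat, also known as Gomafu, lies on chromosome 5 (112213228 to 112229395, minus strand) and has 7 exons in its longest transcript. Its level was 63.9, 62.6, 67.4 and 33.1 CPM in the libraries labelled knockout, against 31.5, 52.1, 20.7 and 41.4 CPM in wildtype libraries. It varied more than any other tested lncRNA, 3.25-fold between the lowest and highest library. The first 3 libraries labelled knockout were above all wildtype libraries, and the fourth was within their range. The difference on the log2 scale was 0.64 ± 0.26 (95% interval 0.08 to 1.197; adjusted p = 0.647, edgeR), and it was 0.28 without wildtype libraries 1 and 3. With the share of counts in other lncRNAs as a covariate, the log2 fold change was 0.19 for Miat, 0.08 for Malat1 and 0.01 for Neat1.

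None of the listed genes for proteins that share bodies with these 3 RNAs passed the threshold (edgeR), and DESeq2 called 0 of them too. Of 18 paraspeckle protein genes tested, 2 were higher at an unadjusted p under 0.05, and their median log2 fold change was 0.04, with 12 above 0 and 6 below. Cpsf6, a cleavage factor subunit and the member of that list with the smallest p, had 229 ± 8.08 CPM in the libraries labelled knockout and 203 ± 13.7 CPM in wildtype libraries (SD, n = 4 each), a log2 fold change of 0.17 ± 0.06 (adjusted p = 0.570, edgeR). Nono and Sfpq, the core paraspeckle proteins, had log2 fold changes of -0.06 ± 0.06 and 0.16 ± 0.08. Of 18 nuclear speckle protein genes, 4 were higher at an unadjusted p under 0.05 and the median was 0.06, with 15 above 0. Over all tested genes, 4.76% were higher at that unadjusted threshold, 2.78% lower, and 50% had a log2 fold change above 0. Rbm25, a splicing regulator, had 113 ± 5.95 CPM in the libraries labelled knockout and 103 ± 3.13 CPM in wildtype libraries, with no overlap but an adjusted p of 0.618 (edgeR). The Miat-binding proteins Qki, Sf1 and Celf3 had log2 fold changes of 0.00 ± 0.06, 0.00 ± 0.06 and 0.30 ± 0.17.

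Rmst, whose human counterpart guides Sox2 to neurogenic promoters, lies on chromosome 10 (92071037 to 92165170, minus strand), with 10 exons in its longest transcript. It had 90, 128, 104 and 104 counts in the libraries labelled knockout, against 69, 96, 80 and 70 counts in the deeper wildtype libraries. On the CPM scale this was 3.05, 3.81, 3.11 and 3.28 in the libraries labelled knockout, against 1.78, 2.21, 2.34 and 2.09 in wildtype libraries. All 4 libraries labelled knockout were above all 4 wildtype libraries. Its log2 fold change of 0.65 ± 0.15 (SE; 95% interval 0.32 to 0.99) was the largest among the 8, with an adjusted p of 0.326 (edgeR) and of 0.0622 in the authors' deposited table. The value stayed between 0.58 and 0.71 under the 21 alternatives tried.

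Such a separation of the groups was seen upward in 2.07% and downward in 1.62% of all tested genes, and upward in 4.93% of the 3550 tested lncRNA-class genes. Among the 8 lncRNAs, 2 had it, Rmst and Gas5. Stria and mesenchyme marker sums also separated the groups, in the opposite direction, as given above.

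Sox2ot, whose introns hold Sox2, spans 34104270 to 34682619 on chromosome 3 (plus strand) and has 3 exons in its longest transcript. Its level was 4.34, 4.22, 4.22 and 4.48 CPM in the libraries labelled knockout, against 3.98, 4.99, 3.60 and 4.36 CPM in wildtype libraries. All libraries labelled knockout lay inside the wildtype range, with a coefficient of variation of 2.85% against 14.0%. No test compared these spreads. Sox2ot had 128 to 142 counts in the libraries labelled knockout, so few that sampling noise alone exceeds 2.85%. Its log2 fold change was 0.02 ± 0.13 (95% interval -0.26 to 0.31; adjusted p = 0.969, edgeR), and its sign turned without wildtype library 1 (-0.01) or wildtype library 3 (-0.05). Sox2, the transcription factor that marks prosensory and supporting cells, had 108 ± 3.75 CPM in the libraries labelled knockout and 107 ± 9.19 CPM in wildtype libraries (SD, n = 4 each), a log2 fold change of 0.02 ± 0.06. Sox2 lies within the span of Sox2ot. Elsewhere, reads of overlapping genes cannot be told apart with neither strand setting nor annotation stated, which bears on Gas5 with Zbtb37, on Norad with Gm14170 and on Pvt1 with Macroh2a3.

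Dlx6os1, the antisense RNA known as Evf2 that regulates Dlx5 and Dlx6 in the mouse forebrain, was barely present. It had 8, 1, 3 and 1 counts in the libraries labelled knockout, against 6, 2, 1 and 2 counts in wildtype libraries. Such counts allow no order between the groups, and without the filter its log2 fold change was 0.47 ± 0.85 (adjusted p = 0.880, edgeR). Its genomic neighbours were sparse too: Dlx5 had 0.224 ± 0.101 CPM in the libraries labelled knockout and 0.424 ± 0.167 CPM in wildtype libraries (log2 fold change -0.90 ± 0.41; adjusted p = 0.647, edgeR), and Dlx6 had 0.0329 ± 0.0480 CPM with the knockout label and 0.0378 ± 0.0388 CPM in wildtype and was not tested. Dlx1 and Dlx2, homologues on another chromosome, had log2 fold changes of -0.03 ± 0.15 and 0.00 ± 0.14.

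Norad, a cytoplasmic RNA that holds Pumilio proteins away from their targets, lies on chromosome 2 (156388065 to 156392979, minus strand) as a single exon. Its level was 544, 526, 513 and 604 CPM in the libraries labelled knockout, against 635, 528, 614 and 577 CPM in wildtype libraries. It was the steadiest of the 9, with a highest-to-lowest ratio of 1.24, and the single one of those tested with a log2 fold change below 0. Libraries 2 and 3 labelled knockout were below every wildtype library and the groups overlapped. The log2 fold change was -0.11 ± 0.07 (95% interval -0.26 to 0.05; adjusted p = 0.696, edgeR), with -0.07 without wildtype library 1, -0.02 without wildtype libraries 1 and 3, and -0.01 with the share of other lncRNAs as a covariate.

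Of 8 genes for Norad-binding proteins, 0 passed the threshold with edgeR or DESeq2, 0 had an unadjusted p under 0.05, and the median log2 fold change was -0.002. Pum2, a Pumilio protein, had 284 ± 11.4 CPM in the libraries labelled knockout and 279.5 ± 7.56 CPM in wildtype libraries (SD, n = 4 each). Rbmx, a nuclear RNA-binding protein with a role in genome stability, had the smallest p of the list, with a log2 fold change of 0.11 ± 0.06 (adjusted p = 0.650, edgeR).

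Gas5, first found in growth-arrested cells, lies on chromosome 1 (161034422 to 161038539, plus strand), with 4 exons in its longest transcript. Its level was 83.0, 81.1, 75.5 and 66.7 CPM in the libraries labelled knockout, against 51.9, 64.8, 63.0 and 60.3 CPM in wildtype libraries. The groups did not overlap, with 66.7 CPM the lowest value of the libraries labelled knockout and 64.8 CPM the highest of wildtype libraries. The log2 fold change was 0.35 ± 0.08 (SE; 95% interval 0.17 to 0.53), 1.28-fold, with an adjusted p of 0.326 (edgeR). DESeq2 gave an adjusted p of 0.0446 for a log2 fold change of 0.35 ± 0.09, as does the authors' deposited table, so the call depended on the tool while the size did not (0.29 to 0.41 under the 21 alternatives).

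Other host transcripts of small nucleolar RNAs were read beside it: of 13 tested, 0 passed with edgeR or DESeq2 and 0 had an unadjusted p under 0.05, 9 were above 0 and 4 below, and the median log2 fold change was 0.08. Snhg15 had the smallest p (log2 fold change 0.37 ± 0.24; adjusted p = 0.678, edgeR) at 1.93 ± 0.494 CPM in the libraries labelled knockout and 1.48 ± 0.352 CPM in wildtype libraries. Snhg1 and Zfas1 had log2 fold changes of 0.04 ± 0.07 and -0.06 ± 0.06. Gas5 RNA is degraded by nonsense-mediated decay. Of 10 genes for that pathway's proteins, 0 passed with edgeR or DESeq2 and 0 had an unadjusted p under 0.05, with a median of 0.02 and Upf3b lowest in p (0.19 ± 0.10; adjusted p = 0.647, edgeR). Nr3c1, the glucocorticoid receptor that human GAS5 binds, had 64.6 ± 5.85 CPM in the libraries labelled knockout and 70.2 ± 6.72 CPM in wildtype libraries (log2 fold change -0.12 ± 0.08). Zbtb37, which overlaps Gas5, had a log2 fold change of 0.07 ± 0.05.

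Pvt1, the neighbour of the oncogene Myc, spans 62037986 to 62378096 on chromosome 15 (plus strand) and has 10 exons in its longest transcript. Its level was 4.07, 3.00, 3.05 and 3.18 CPM in the libraries labelled knockout, against 3.10, 3.22, 2.81 and 1.82 CPM in wildtype libraries. The groups overlapped, and 1 library on each side stood off, library 1 labelled knockout with the highest value and wildtype library 4 with the lowest. The log2 difference was 0.27 ± 0.19 (95% interval -0.15 to 0.69; adjusted p = 0.706, edgeR), and it was 0.16 without the first of these and 0.12 without the second. Myc had 20.2 ± 2.02 CPM in the libraries labelled knockout and 19.01 ± 2.42 CPM in wildtype libraries, a log2 fold change of 0.09 ± 0.10.

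Genes beside the lncRNAs were given by the nearest tested gene on each side, and none passed the threshold with edgeR. Frmd8, beside Neat1, had a log2 fold change of -0.04 ± 0.08. Around Miat, E130006D01Rik had -0.33 ± 0.38 and Tpst2, a tyrosylprotein sulfotransferase, -0.19 ± 0.07 with non-overlapping groups (17.1 ± 1.09 CPM in the libraries labelled knockout and 19.5 ± 0.695 CPM in wildtype libraries; adjusted p = 0.618, edgeR). Tmpo and Nedd1 beside Rmst had -0.002 ± 0.05 and 0.05 ± 0.10, Epb41l1 and Gm14170 beside Norad -0.04 ± 0.05 and 0.71 ± 0.39, and the pseudogene Macroh2a3, which overlaps Pvt1, 0.69 ± 0.32. Before Sox2ot lies Gm20515 (0.51 ± 0.24), and before Dlx6os1 lies Gm52889, at 7.01 ± 1.302 CPM in the libraries labelled knockout and 4.605 ± 0.472 CPM in wildtype libraries, a log2 fold change of 0.61 ± 0.15 with non-overlapping groups (adjusted p = 0.363, edgeR; 0.0289, DESeq2). In the list of genes tied to the lncRNAs by position or binding, 0 of 12 tested passed with edgeR or DESeq2, 6 were above 0, and at an unadjusted p under 0.05 1 was higher and 1 lower. Hnrnpa2b1, which binds human RMST, had 0.13 ± 0.06, and Ltbp3 had -0.13 ± 0.07.

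**Figure D3:**
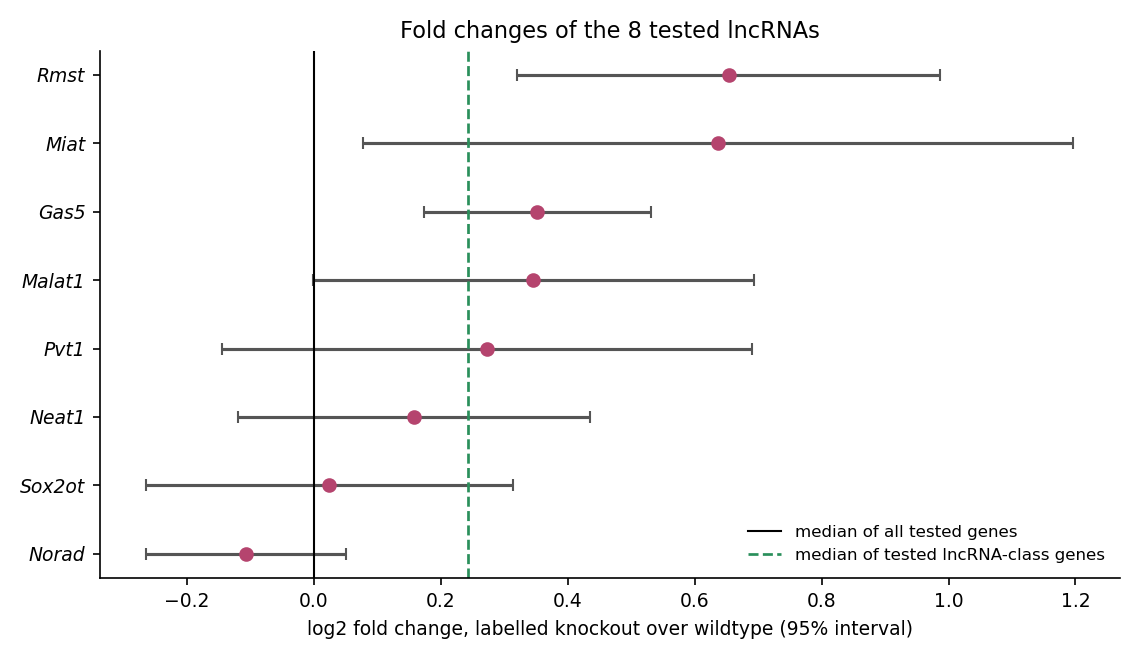
Log2 fold change of the libraries labelled knockout over wildtype for the 8 tested lncRNAs, with 95% intervals from the edgeR fit; the solid line is the median of all 20581 tested genes and the dashed line that of the 3550 tested lncRNA-class genes. Of the 8 points, 7 lie right of 0 and Norad lies left of it.

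Of the 8 lncRNAs, 7 had a log2 fold change above 0 and 1 below, with a median of 0.31. Over all tested genes, 50% were above 0 and the median was 0.00. The whole lncRNA class leaned the same way: 80.9% of its 3550 tested genes were above 0, with a median of 0.24, against 40% and a median of -0.03 for 15170 protein-coding genes. At an unadjusted p under 0.05, 12.3% of the lncRNA class had higher and 0.366% lower levels with the knockout label. At the adjusted threshold 2 of the 3550 passed, 0.0563%.

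The share of all counts that fell in lncRNA genes differed mainly from library to library. It was 2.51, 2.77, 2.97 and 2.03% in the libraries labelled knockout, against 1.99, 2.61, 1.67 and 2.36% in wildtype libraries. The mean was 2.57 ± 0.404% with the knockout label and 2.16 ± 0.412% in wildtype (SD; exact permutation p = 0.2, two-sided, n = 4 each), a difference within the spread of the libraries. The 9 lncRNAs together held 0.585, 0.682, 0.727 and 0.478% of counts in the libraries labelled knockout, against 0.480, 0.582, 0.365 and 0.560% in wildtype libraries (exact permutation p = 0.143, two-sided, n = 4 each). The smallest p that 4 against 4 allows is 0.0286. In both measures the libraries labelled knockout 4, wildtype 1 and wildtype 3 were the 3 lowest.

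Within the lncRNA counts the 9 kept a nearly constant part, 23.3 to 24.6% in the libraries labelled knockout and 21.9 to 24.1% in wildtype libraries. Malat1 made up most of it, with 20.05 to 22.1% in the libraries labelled knockout and 17.8 to 20.7% in wildtype libraries. Norad took 1.77 to 2.88% in the libraries labelled knockout and 2.08 to 3.55% in wildtype libraries, and was largest in the libraries where the lncRNA share was smallest. Malat1 counts per Norad count ran from 6.95 to 12.5 in the libraries labelled knockout and from 5.01 to 9.47 in wildtype libraries. Clone- or number-named lncRNAs, most of them without a known role, held 57.9 to 59.6% of lncRNA counts in the libraries labelled knockout and 54.3 to 58.8% in wildtype libraries.

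The 10 lncRNA-class genes with the most counts were Malat1, H19, Xist, Gm33649, Norad, Kcnq1ot1, Gm42339, Gm51671, Tug1 and Gm33272. H19, the imprinted growth-linked RNA, had 1091 ± 34.9 CPM in the libraries labelled knockout and 1162 ± 81.0 CPM in wildtype libraries. Tug1 had 292 ± 17.6 CPM with the knockout label and 291 ± 14.6 CPM in wildtype, and Kcnq1ot1, an imprinted antisense RNA, 438 ± 86.6 CPM with the knockout label and 353 ± 99.3 CPM in wildtype. Xist, which coats the inactive X chromosome, had 687 ± 99.1 CPM in the libraries labelled knockout and 919 ± 298 CPM in wildtype libraries. The number-named Gm33649, Gm42339, Gm51671 and Gm33272 had log2 fold changes of 0.52 ± 0.23, 0.48 ± 0.22, 0.40 ± 0.23 and 0.38 ± 0.25, and none of the 10 passed the threshold with edgeR or DESeq2. Gm26917, which RefSeq does not class, held 4.58 to 5.32% of counts in the libraries labelled knockout and 4.04 to 4.88% in wildtype libraries and is outside these shares.

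**Figure D4:**
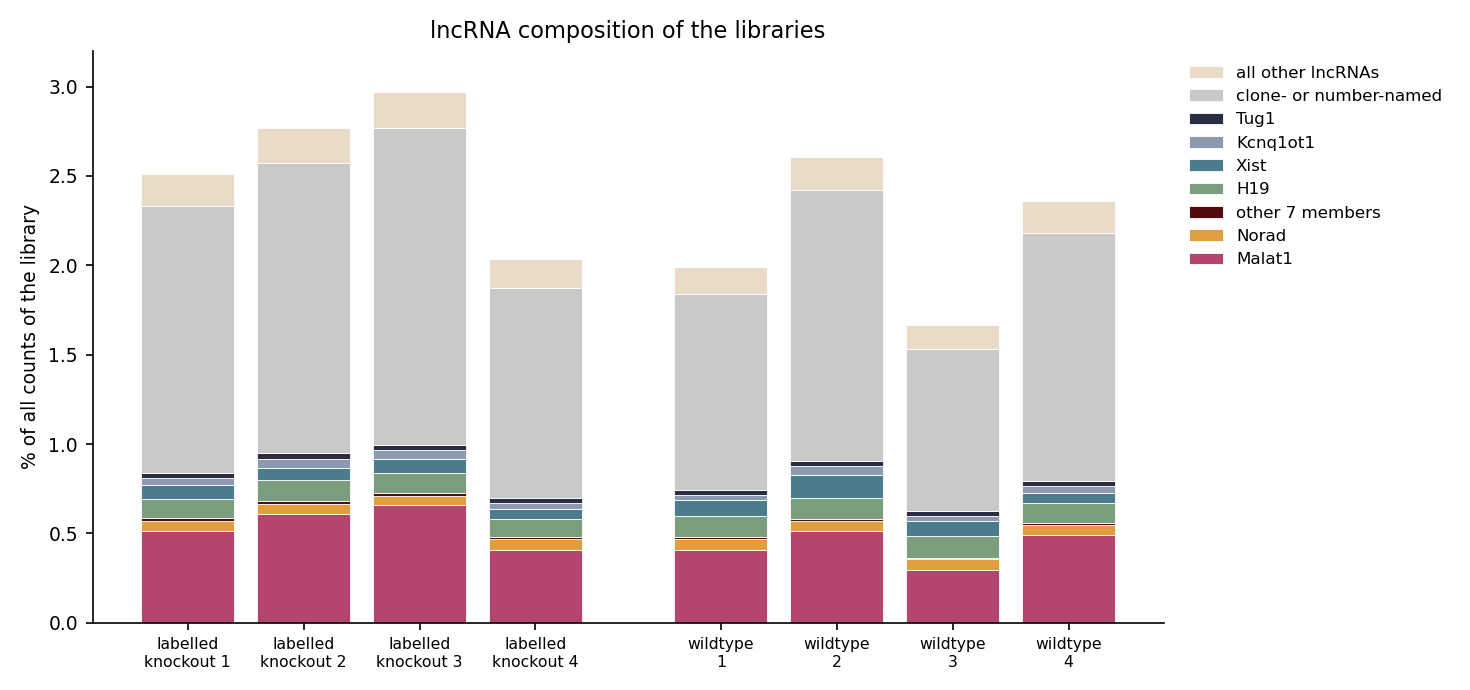
Share of all counts of a library, in %, that fell in lncRNA-class genes, stacked by gene, with the 4 libraries labelled knockout left of the 4 wildtype libraries. Malat1 is the largest segment of a single gene in each library, and the whole bar ranges from 1.67 to 2.97%.

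Malat1 and Miat followed the rest of the class across the 8 libraries, and Norad ran opposite to it. The level of each of the 9, as log2(CPM + 0.5), was set against the share of counts in the lncRNA genes outside the 9, with exact permutation p-values over 40320 orders of the libraries and Benjamini-Hochberg adjustment over the 9 relations. Malat1 gave Pearson's r = 0.961 (permutation p = 9.92e-05, adjusted 0.000893) and Spearman's rho = 0.952 (permutation p = 0.00114). Miat gave r = 0.961 (permutation p = 0.000372, adjusted 0.00167) and rho = 0.929 (permutation p = 0.00223). Norad gave r = -0.951 (permutation p = 0.000620, adjusted 0.00186) and rho = -0.976 (permutation p = 0.000397). Without the 2 libraries farthest from the median share, the third of each group, r was 0.939 for Malat1, 0.932 for Miat and -0.983 for Norad. With both measures centred within the groups, r was 0.953, 0.956 and -0.936 for the same 3, and the 3 relations still passed.

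Neat1 came next with r = 0.785 (permutation p = 0.0204, adjusted 0.0458) and rho = 0.667 (permutation p = 0.0831), but r was 0.654 without the 2 farthest libraries and no longer passed. The other 5 did not pass: r was 0.642 for Gas5 (permutation p = 0.0885), 0.571 for Sox2ot (0.137), 0.462 for Rmst (0.240), 0.143 for Pvt1 (0.764) and 0.114 for Dlx6os1 (0.798). Centred within the groups, r was 0.0471 for Rmst and 0.491 for Gas5, and neither passed. Level and share come from the same libraries and both rest on their total counts, and a larger share of one class leaves less for the rest. The level alone was also divided by the TMM factor. That factor was 0.964 in wildtype library 3, with the smallest share, and 1.027 in library 3 labelled knockout, with the largest. The relations were not repeated without it. The labels name no batch or date within which to repeat the relations.

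**Figure D5:**
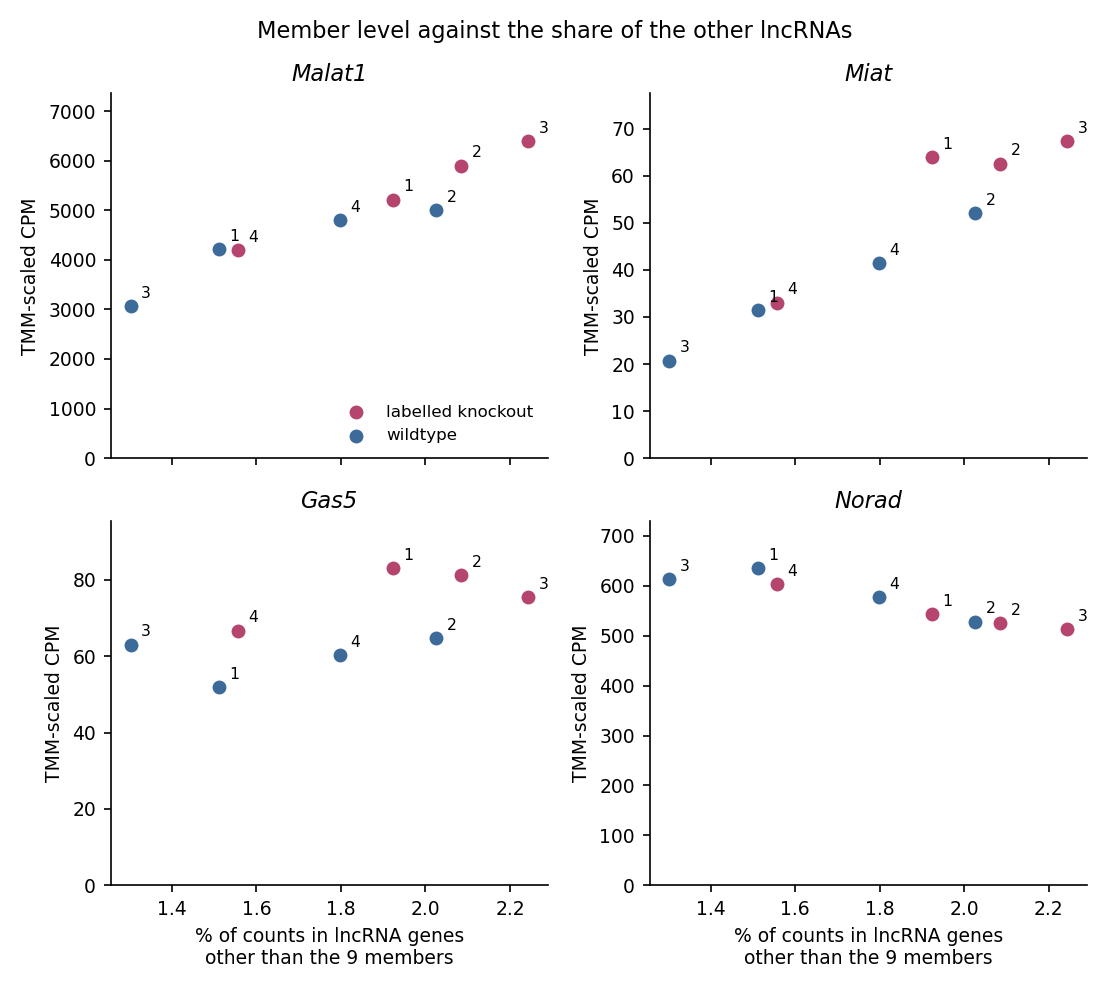
Level of Malat1, Miat, Gas5 and Norad in TMM-scaled CPM against the share of counts in lncRNA genes other than the 9, in %, with 1 point per library, numbered within its group. Malat1 and Miat climb with the share, Norad declines, with 513 CPM at the highest share, and Gas5 separates the libraries labelled knockout from wildtype.

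The relation to single genes was described over those whose average log2 CPM was 2 or more, as Pearson's r over the 8 libraries and with no test. With 696 other lncRNA-class genes the median r was 0.881 for Malat1, 0.877 for Miat, 0.758 for Neat1, 0.552 for Gas5, 0.427 for Rmst and -0.776 for Norad. With 12331 protein-coding genes it was -0.293 for Malat1, -0.293 for Miat and 0.273 for Norad. Between the lncRNAs themselves, Malat1 and Miat had r = 0.96, Malat1 and Neat1 0.86, Rmst and Gas5 0.88, and Norad and Miat -0.90. For Pvt1 and Dlx6os1, r to each of the other 8 was 0.52 or less, the highest being that between the pair.

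Among 13662 genes, the 3 named genes most like each lncRNA were picked by the same r over the 8 libraries, again as a description. For Malat1 they were Zmiz1os1 (0.997), Rab11bos1 (0.990) and Cdkal1 (0.990), the first 2 named as opposite-strand transcripts. For Miat they were Cfap44 (0.992), Spindoc (0.991) and Eml5 (0.990), and for Neat1 Eno3 (0.976), Ccdc9 (0.9751) and Prss48 (0.970). Norad was most like Eif1 (0.993), Mtarc2 (0.993) and Pcyox1 (0.988), all protein-coding. Rmst and Gas5 shared Dedd (0.942 and 0.936), with Zscan30 (0.930) and Ikzf2 (0.921) beside Rmst and Fmn1 (0.958) and Ano1 (0.939) beside Gas5. Pvt1 was most like Tpm2 (0.990), Slc8a1 (0.967) and Acvr2a (0.957), and Sox2ot most like Sh2b2 (0.934), Setd4 (0.930) and Homer3 (0.918). For Dlx6os1, whose counts were 1 to 8, Snx29 (0.9355), Crcp (0.933) and Smyd5 (0.927) came first.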

How the data were processed

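Total RNA of dissected organ of Corti was purified by RNeasy and, after ribosomal RNA depletion, turned into libraries with NEBNext Ultra II reagents, per the labels' protocols. The submitters' processing notes name the build GRCm39 and HISAT2 2.2.1, cutadapt 4.3, FastQC 0.12.1, DESeq2 and featureCounts; for annotation, strand setting and multi-mapping reads the answer is not given in the sources used here. Raw counts of each gene in each library are the authors' values, per the file headers, deposited with group means and SDs, a mean normalized signal, and a DESeq2 table of log2 fold changes, test scores and p-values.

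Columns were mapped by the library names in the labels. Genes were kept with filterByExpr (minimum count 10), scaled by TMM and tested with edgeR 4.0.16 (quasi-likelihood, Benjamini-Hochberg, threshold 0.05); CPM values use TMM factors. Alternatives used DESeq2 1.42.0, limma 3.58.1 (voom) and those in the closing section. Classes came from RefSeq GRCm38.p6 by symbol (94.2% of tested genes matched); lengths and sequences from GENCODE M21, Norad by position. On simulated data of this comparison (20360 genes), edgeR recovered 20% of genes changed 1.25-fold, 56% at 1.5-fold and 70% at 2-fold. Libraries of the same group differed by more than sampling noise (chi-square per degree of freedom at least 10.7). Named genes are the 9, Prox1, Emx2, up to 3 genes per list past the threshold or else that with the smallest p, all genes tied by position or binding, nearest tested neighbours, the 3 most alike and the 10 lncRNAs with most counts; others were chosen after their values were seen. The members, the lists and several alternatives were chosen with earlier results of these data known. A few genes that these rules name are not reported here.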

Additional observations from a re-analysis of the deposited data

Results flagged for a closer look

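In 100 groups of 4 libraries, one for each reported lncRNA, named gene or share and each genotype label, a single library was looked for whose gap to the nearest other library exceeded Dixon's 95% critical share of the range. Chance alone marks about 1 in 20 such groups, and 6 were marked. Among the 9 lncRNAs, Miat had 33.1 CPM in library 4 labelled knockout against 62.6 to 67.4 CPM in the other 3, and Pvt1 had 4.07 CPM in library 1 labelled knockout against 3.00 to 3.18 CPM in the others. Among the listed genes, Rbm25 had 122 CPM in library 3 labelled knockout (others 109 to 111), and the strial potassium channel gene Kcne1 1.90 CPM in library 1 labelled knockout (others 0.851 to 0.951). In wildtype libraries, Rbmx had 66.7 CPM in library 2 (others 59.9 to 60.5) and Sox2 93.1 CPM in library 1 (others 110 to 113). No cause was tested for any of them.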

How the results depend on the processing

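The 8 tested lncRNAs were refitted under 21 alternatives each, and Dlx6os1 gave a value only without the filter. Malat1, Neat1, Miat, Rmst, Pvt1 and Norad kept their direction and did not pass in any of them. Gas5 passed under DESeq2 (log2 fold change 0.35; adjusted p = 0.0446, where the range over its alternatives ended at 1.00) and in no other. Sox2ot turned negative with the share of other lncRNAs as a covariate (-0.051) and without wildtype libraries 1 and 3 together (-0.12), and ran from -0.046 to 0.115 with single libraries left out, being negative without wildtype library 1 (-0.00576) or 3. With that covariate Malat1, Neat1, Miat and Norad came to 0.08, 0.01, 0.19 and -0.01.

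Genes called higher and lower numbered 7 and 12. They were 12 and 24 without a filter, 36 and 50 by DESeq2, and 2 and 7 without wildtype libraries 1 and 3. Genes called higher numbered 4 with total counts alone and 13 with the covariate. With single libraries left out, 2 to 7 were higher and 8 to 20 lower, the 20 without library 4 labelled knockout. Replicate numbers did not pair the libraries (correlation of deviations between same-numbered libraries -0.34 to 0.27); with the number as a block 3 genes were called higher.

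In relation to the share of other lncRNAs, Neat1 no longer passed without the 2 farthest libraries (r = 0.654), centred in groups (0.739) or without wildtype libraries 1 and 3 (0.566). The sign turned for Pvt1 centred in groups (-0.131), for Dlx6os1 without the 2 farthest libraries (-0.111) and for Sox2ot without wildtype libraries 1 and 3 (-0.172). The causes were not tested. The difference in lncRNA share stayed between 0.0871 and 0.592 percentage points and that of the 9 between 0.0469 and 0.168, with no p under the threshold. Gm26917 was kept out of the lncRNA share in every alternative, also when classes came from GENCODE M21, and a share that includes it was not tested. Low counts limit Rmst, Pvt1, Sox2ot and Dlx6os1.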

Other observations

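Other lncRNAs with a known name were listed as well, and 29 of 31 were found, 24 of them tested. None passed the threshold (edgeR), 2 were higher and 1 lower at an unadjusted p under 0.05, and DESeq2 called 1, Crnde. A log2 fold change above 0 was seen in 18 and below 0 in 6, and the median was 0.14. In the whole lncRNA class, 12.3% were higher and 0.366% lower at that unadjusted threshold, 80.9% were above 0, and the median was 0.24. Over all tested genes, 4.76% were higher, 2.78% lower and 50% above 0, and DESeq2 called 0.188% of those with an adjusted p higher. Crnde, an RNA of proliferating and developing tissue, had 34.5 ± 2.47 CPM in the libraries labelled knockout and 26.7 ± 2.06 CPM in wildtype libraries (SD, n = 4 each), with no overlap and a log2 fold change of 0.37 ± 0.07 (adjusted p = 0.176, edgeR; 0.00665, DESeq2). Firre, an X-linked nuclear RNA, had 144 ± 19.6 CPM in the libraries labelled knockout and 110 ± 24.0 CPM in wildtype libraries. Meg3 had 95.5 ± 18.998 CPM in the libraries labelled knockout and 79.5 ± 21.7 CPM in wildtype libraries. Hotair, Hottip, Paupar and Peg13 had no count in any library. Firre and Meg3 were chosen after their values were seen, and Crnde had the smallest p of the list.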
